A study of Mus musculus with 14 samples.

Results

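The H3K36me3 ChIP-seq peaks of Setd2KO mouse spermatocytes are described here, selected on the authors' peak calls: every autosomal entry of the list deposited for that sample was taken. There were 1152 such peaks, of 83701 peaks in the 4 deposited lists. The choice used the calls and their positions, so widths, scores and overlaps with wild-type (WT) peaks and genes are given as a description and were not tested. All samples came from adult C57BL/6J mice. Cells were sorted by DNA staining into pachytene/diplotene spermatocytes (PD) and round spermatids (RS). The groups were PD Setd2KO, PD WT, RS Setd2KO and RS WT, each with 1 H3K36me3 peak list and 2 polyadenylated RNA-seq libraries, and n = 2 in every RNA comparison below. Which part of Setd2 was removed, by what driver, and whether the 2 libraries of a group came from different mice is not given in the sources used here. P-values therefore measure only the spread between libraries.

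H3K36me3 is trimethylation of lysine 36 on histone H3. In mammals SETD2 makes most of it, riding on elongating RNA polymerase II, so the mark normally fills the bodies of transcribed genes in broad stretches and thins towards the gene start. In meiotic cells PRDM9 places the same mark at recombination hotspots, and NSD enzymes such as WHSC1 make the dimethylated form. Pachytene and diplotene spermatocytes are in meiotic prophase, and round spermatids are the haploid cells that follow them and switch on the genes of the acrosome and tail.

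Some of the Setd2KO peaks lay at the starts of genes of round spermatids. A peak lay within 1 kb of the start of 67 genes. For 53 of these genes, 1 of them through a synonym, RefSeq promoters of build GRCm38.p6 were on hand. Those printed here, from 250 bases before the start to 50 after it on the coding strand, belong to the 6 genes with 1 promoter in that table, a peak score of at least 80 and an RS WT level of 20 or more FPKM (fragments per kilobase of transcript, scaled to mapped reads). They show how few CG dinucleotides, in capitals, most of these strong examples had. Saysd1, whose peak was the only one of the 6 to touch WT peaks, is the CG-rich contrast. At the same offsets from the mm9 starts, the peak covered 251 bases of the window for Erich3 and 78 for Ddi1. It covered no base of the window for Kif2b, Spaca7, Tmco5 or Saysd1, so those sequences lie beside the peak. The windows were chr11:91577506-91577805 on the minus strand for Kif2b, chr8:12572786-12573085 on the plus strand for Spaca7, chr2:116878455-116878754 on the plus strand for Tmco5, chr14:20083123-20083422 on the minus strand for Saysd1, chr3:154710883-154711182 on the plus strand for Erich3, and chr9:6266498-6266797 on the minus strand for Ddi1.
Kif2b: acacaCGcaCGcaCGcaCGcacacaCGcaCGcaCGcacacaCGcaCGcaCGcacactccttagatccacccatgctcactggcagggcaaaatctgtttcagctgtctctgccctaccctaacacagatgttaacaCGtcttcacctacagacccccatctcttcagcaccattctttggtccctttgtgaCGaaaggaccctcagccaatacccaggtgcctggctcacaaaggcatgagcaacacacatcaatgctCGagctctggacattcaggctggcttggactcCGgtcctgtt
Spaca7: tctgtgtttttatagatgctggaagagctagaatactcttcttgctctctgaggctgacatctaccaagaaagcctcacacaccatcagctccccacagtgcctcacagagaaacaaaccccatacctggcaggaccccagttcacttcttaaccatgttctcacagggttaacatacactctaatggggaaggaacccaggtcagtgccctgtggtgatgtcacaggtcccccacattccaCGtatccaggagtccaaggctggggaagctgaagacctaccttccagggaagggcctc
Tmco5: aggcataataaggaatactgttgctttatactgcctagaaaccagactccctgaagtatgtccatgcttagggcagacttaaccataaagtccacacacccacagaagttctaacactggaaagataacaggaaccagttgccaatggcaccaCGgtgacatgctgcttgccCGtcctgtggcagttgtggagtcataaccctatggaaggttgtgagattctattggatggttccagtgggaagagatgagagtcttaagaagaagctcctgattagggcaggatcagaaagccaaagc
Saysd1: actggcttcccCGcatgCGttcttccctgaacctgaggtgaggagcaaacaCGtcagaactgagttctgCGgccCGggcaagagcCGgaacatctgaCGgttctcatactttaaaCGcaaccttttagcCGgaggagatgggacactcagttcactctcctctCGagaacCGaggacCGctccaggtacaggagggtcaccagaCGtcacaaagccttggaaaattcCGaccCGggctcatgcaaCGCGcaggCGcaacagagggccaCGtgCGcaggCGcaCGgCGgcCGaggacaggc
Erich3: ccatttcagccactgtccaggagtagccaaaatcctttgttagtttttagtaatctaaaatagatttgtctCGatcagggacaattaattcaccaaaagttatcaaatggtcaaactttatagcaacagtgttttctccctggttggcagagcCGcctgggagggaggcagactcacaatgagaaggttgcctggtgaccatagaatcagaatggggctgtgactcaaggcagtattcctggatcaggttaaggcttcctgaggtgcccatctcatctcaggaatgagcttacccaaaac
Ddi1: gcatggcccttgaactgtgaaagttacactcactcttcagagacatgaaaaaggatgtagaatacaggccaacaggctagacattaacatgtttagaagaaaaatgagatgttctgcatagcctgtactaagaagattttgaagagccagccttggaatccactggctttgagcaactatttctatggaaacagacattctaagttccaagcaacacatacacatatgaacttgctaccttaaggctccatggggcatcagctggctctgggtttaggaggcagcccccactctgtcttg

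The Kif2b window held 14 CG dinucleotides, most of them in a CA-rich repeat far from the start, and the Saysd1 window held 24. Tmco5 and Erich3 had 2 each, Spaca7 had 1 and Ddi1 had 0. Over the 65 promoters of the 53 matched genes the median was 7 CG dinucleotides, with an observed-to-expected ratio of 0.341 and a GC content of 52.3%. Promoters of genes with a PD WT peak within 1 kb of the start had a median of 22, a ratio of 0.809 and a GC content of 60.7%. When only genes that reached 20 FPKM in RS WT were compared, the 53 promoters of start genes had a median of 5 CG dinucleotides and a ratio of 0.271, against 19 and 0.741 for the 2617 promoters of other genes. The 31396 autosomal promoters as a whole had a median of 7 and a ratio of 0.389. The 65 promoters thus had the CG content of an average promoter, not that of promoters with a WT mark. They were spread out, with quartiles of the ratio at 0.132 and 0.829, and 43.1% held 5 CG dinucleotides or fewer.

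Of 4 motifs searched on both strands in these windows, none set the promoters far from the others. The full cyclic AMP response element TGACGTCA, which CREM binds in spermatids, was present in 3.08% of the 65 promoters, against 3.48% of promoters of genes that reached 20 FPKM in RS WT and 1.83% of all autosomal promoters. Its shorter form TGACG, which the full element contains, was present in 29.2% of the 65, against 32.4% at that RS WT level and 21.0% of all. TATAAA was present in 10.8% of the 65, against 7.60% at that level and 13.6% of all, and CCAAT in 49.2% of the 65, against 39.1% at that level and 37.3% of all. The class at that RS WT level holds start genes too, and the 65 include promoters of genes below it. With only genes at that level on both sides, TGACGTCA was in 0 of 53 start promoters, against 3.55% of the 2617 others. TGACG was in 24.5% against 32.5%, TATAAA in 9.43% against 7.57%, and CCAAT in 47.2% against 39.0%. A match is a run of letters and not a bound site.

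The 1152 peaks covered 0.701 Mb, or 0.0291% of the 2411 Mb of autosome that the lists and genes span. The PD WT list held 44358 autosomal peaks over 238 Mb, or 9.88%. The score is the authors' own value for each peak, and both lists end at a lowest score of 50. Setd2KO peaks had a median width of 587 bases, with a range of 286 to 1940, against a median of 2822 bases in PD WT. Their median score was 55.58, against 227 in PD WT. Most stood just above the bottom of the list. A score under 60 was held by 854 peaks (74.1%), a score of 60 to under 80 by 252, of 80 to under 100 by 29, and of 100 or more by 17. The lowest were 50 and 50.03, and 114 peaks (9.90%) were under 51. No peak below 50 is listed, so those just outside that limit have no value. Widths and scores ran loosely together, with a Pearson r of 0.24 over the 1152 peaks.

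**Figure D1:**
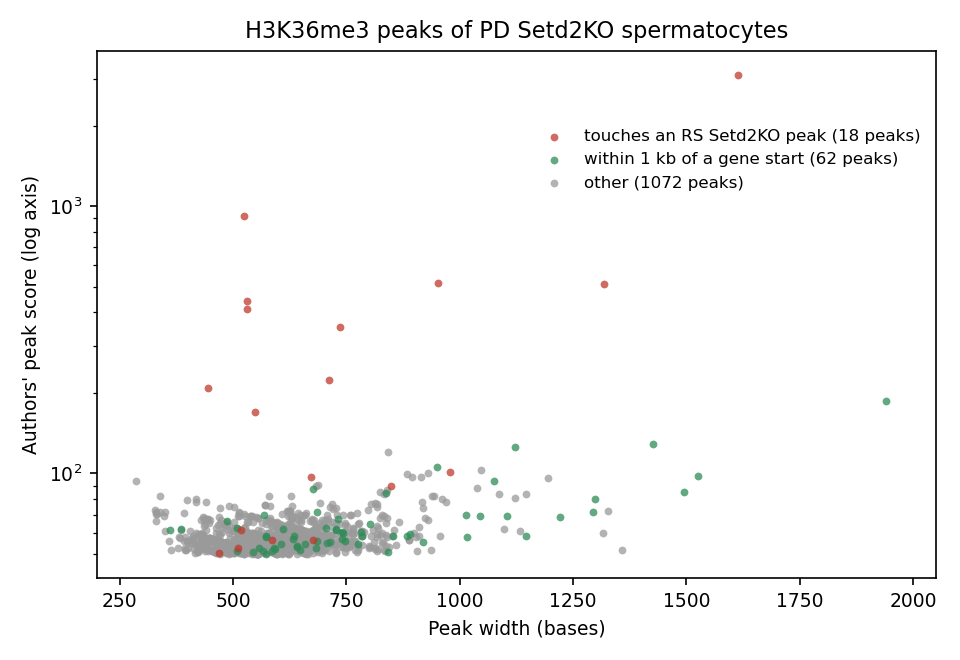
Authors' score (log axis) against width in bases for the 1152 Setd2KO spermatocyte peaks, with 1 point per peak and colours for the 18 that touch an RS Setd2KO peak, the 62 others within 1 kb of a gene start and the remaining 1072. Most points lie at scores under 60 and widths near the median of 587 bases, while the peaks shared with RS Setd2KO reach a score of 3100 and those at starts reach a width of 1940 bases.

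Few of these peaks lay over WT peaks. Only 71 of 1152 (6.16%, exact 95% binomial interval 4.84 to 7.71%) touched a PD WT peak by at least 1 base, and 63 of these lay wholly inside one. The PD WT list itself covered 9.88% of the autosomal extent, a share of bases and not of contacts. An RS WT peak was touched by 76 (6.60%), and 62 touched both WT lists. The other 1067 peaks (92.6%) touched no WT peak of either cell type. Nearly all the listed positions in Setd2KO spermatocytes were therefore positions absent from the WT lists. Intervals cover counting error only. Spike-in chromatin was added to the ChIP reactions, but the sources used here do not say if it scaled these peak calls, and the input libraries were not analysed here.

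The peaks fell into 3 kinds by position in build mm9. The first kind, 63 peaks (5.47%), lay within 1 kb of a gene start, where 1.56% of the autosomal extent lies. Here and below, shares of peaks count any contact of 1 base, while shares of the extent count bases. A peak placed at random would thus meet a region more often than the region's share of bases. A second kind, 410 peaks, lay over genes away from starts. The third kind, 679 peaks, lay outside genes, at a median of 141 kb from the nearest one. A PD WT peak was touched by 17 of the 63 at starts (27.0%), by 45 of the 410 in genes (11%) and by 9 of the 679 outside genes (1.33%). In all, 461 peaks (40.0%) touched a gene, against 35.6% of the extent that lies inside genes and 81.5% of PD WT peaks. More than 100 kb from any gene lay 398 Setd2KO peaks (34.5%), against 2.57% of PD WT peaks. By share inside genes, the Setd2KO list as a whole thus stood nearer to the genome's own proportions than to the WT mark.

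Chromosomes showed the same contrast. Chromosome 2 held 113 Setd2KO peaks, or 0.632 per Mb, and chromosome 3 held 0.628 per Mb. The gene-dense chromosome 11 held 21 peaks, or 0.177 per Mb, with chromosome 19 at 0.293 and chromosome 7 at 0.295. Over the 19 autosomes, peaks per Mb in Setd2KO ran against genes per Mb (Pearson r -0.68, Spearman rho -0.47), whereas PD WT peaks ran with them (r 0.72, rho 0.68). These are descriptions over chromosomes of 1 library each, which differ in base composition and repeats, and no p-value is given.

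**Figure D2:**
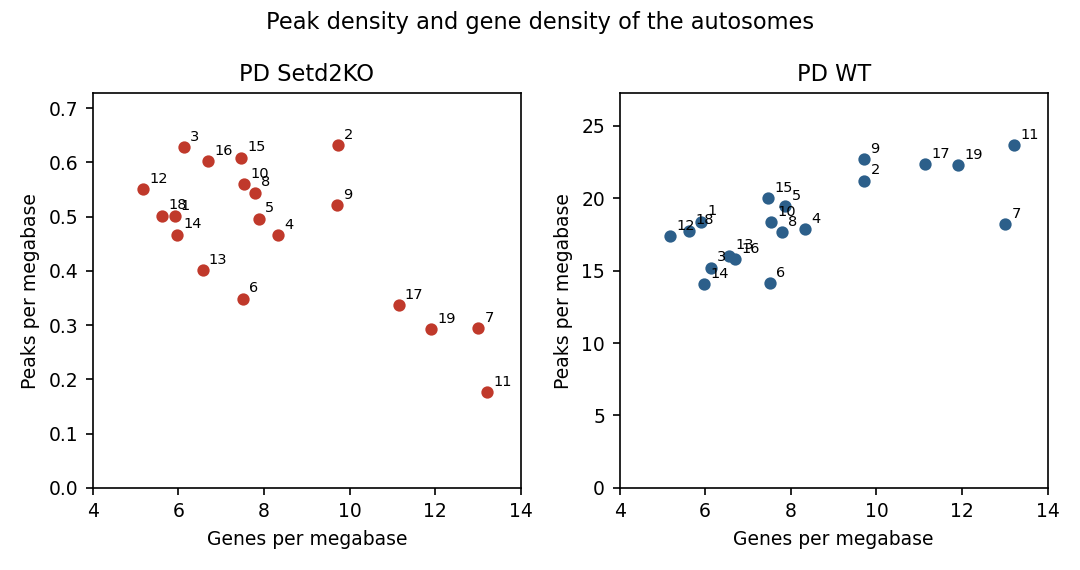
Peaks per megabase against genes per megabase for the 19 autosomes, with 1 point per chromosome, for PD Setd2KO and for PD WT in separate panels with their own vertical scales. Setd2KO peak density is lowest on chromosome 11, at 0.177 per Mb, while PD WT peak density goes up with gene density.

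The strongest peaks were a separate case. At 4 genes picked out after their scores were seen, 11 peaks touched RS Setd2KO peaks and had scores of 89.34 to 3100, with a median of 412. The other 1141 peaks had a median of 55.5 and none exceeded 187.28. Of all 1152 peaks, 18 (1.56%, interval 0.929 to 2.46%) touched an RS Setd2KO peak, and of the 17 scoring at least 100, 11 did (64.7%). The most extreme peaks thus recurred in both Setd2KO lists, while most others did not. The RS Setd2KO list itself was of short peaks, 3676 of them with a median width of 176 bases, which limits what an overlap can show.

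Fzr1, which encodes an activator of the anaphase-promoting complex, held 4 peaks within 4.38 kb at chr10:80830076-80834455. Their scores were 440.75, 89.34, 50.16 and 3100 in PD Setd2KO, and RS Setd2KO had 6 peaks there with scores of 159 to 2754. Both WT cell types had broad peaks over the same bases, of 11476 bases and score 1410 in PD WT and of 14156 bases and score 363 in RS WT. Fzr1 was the only one of the 4 genes with a PD WT peak at these positions. Its RNA was 17.2 and 16.6 FPKM in PD Setd2KO, against 17.9 and 24.2 FPKM in PD WT. RS Setd2KO had 23.2 and 24.1 FPKM of Fzr1, against 37.3 and 30.9 FPKM in RS WT. The Setd2KO libraries were below the WT libraries in both cell types without overlap. In RS the change passed the test (log2 -0.51, adjusted p = 0.026, limma), but not without RS Setd2KO library 1 (0.12), RS Setd2KO library 2 (0.074) or RS WT library 1 (0.19). In PD it did not pass (log2 -0.29, adjusted p = 0.18).

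Whsc1, which encodes the H3K36 dimethyltransferase NSD2, held 3 of the shared peaks. The first, at chr5:34225296-34225819, scored 914.99 in PD Setd2KO and overlapped an RS Setd2KO peak of 432. The other 2 scored 169.41 and 208.6 in PD Setd2KO and overlapped RS Setd2KO peaks of 141 and 74.7. PD WT had no peak at any of these 3 positions. An RS WT peak of 20485 bases and score 1472 covered the other 2 but did not reach the first. A further peak, of score 72.02, began 40 bases downstream of the Whsc1 start. Whsc1 RNA was 19.3 and 18.7 FPKM in PD Setd2KO, against 15.1 and 16.3 FPKM in PD WT, which did not overlap and did not pass the test (log2 0.26, adjusted p = 0.11, limma). Of the 9 H3K36 methyltransferase genes listed, Whsc1 alone lay under a peak.

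Fasl and Emp2 had no WT peak at these positions. Fasl, which encodes the ligand of the death receptor FAS, held a peak of 513.72 near its end and another of 509.35 across its start in PD Setd2KO, over RS Setd2KO peaks of 433 and 1068. Its RNA was low, at 0.0855 and 0.0458 FPKM in PD Setd2KO, against 0.0414 and 0.0614 FPKM in PD WT. In round spermatids Fasl was 0.642 and 0.431 FPKM in RS Setd2KO, against 1.76 and 1.31 FPKM in RS WT. The groups did not overlap (log2 -0.72, adjusted p = 2.2e-04, limma). Only RS WT reached the mean of 1 FPKM needed for testing, so Fasl was tested through the group where it was high. That favours a fall from RS WT, so the p-value is no independent support for one. Emp2, a tetraspan membrane protein gene, held peaks of 224, 412 and 354 in PD Setd2KO, over RS Setd2KO peaks of 494, 1228 and 751. It was under 1 FPKM in all groups and was not tested. Outside genes, downstream of the chemokine receptor gene Ccr1, 2 peaks of 97.20 and 61.57 met a run of 10 RS Setd2KO peaks scoring up to 185.

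**Figure D3:**
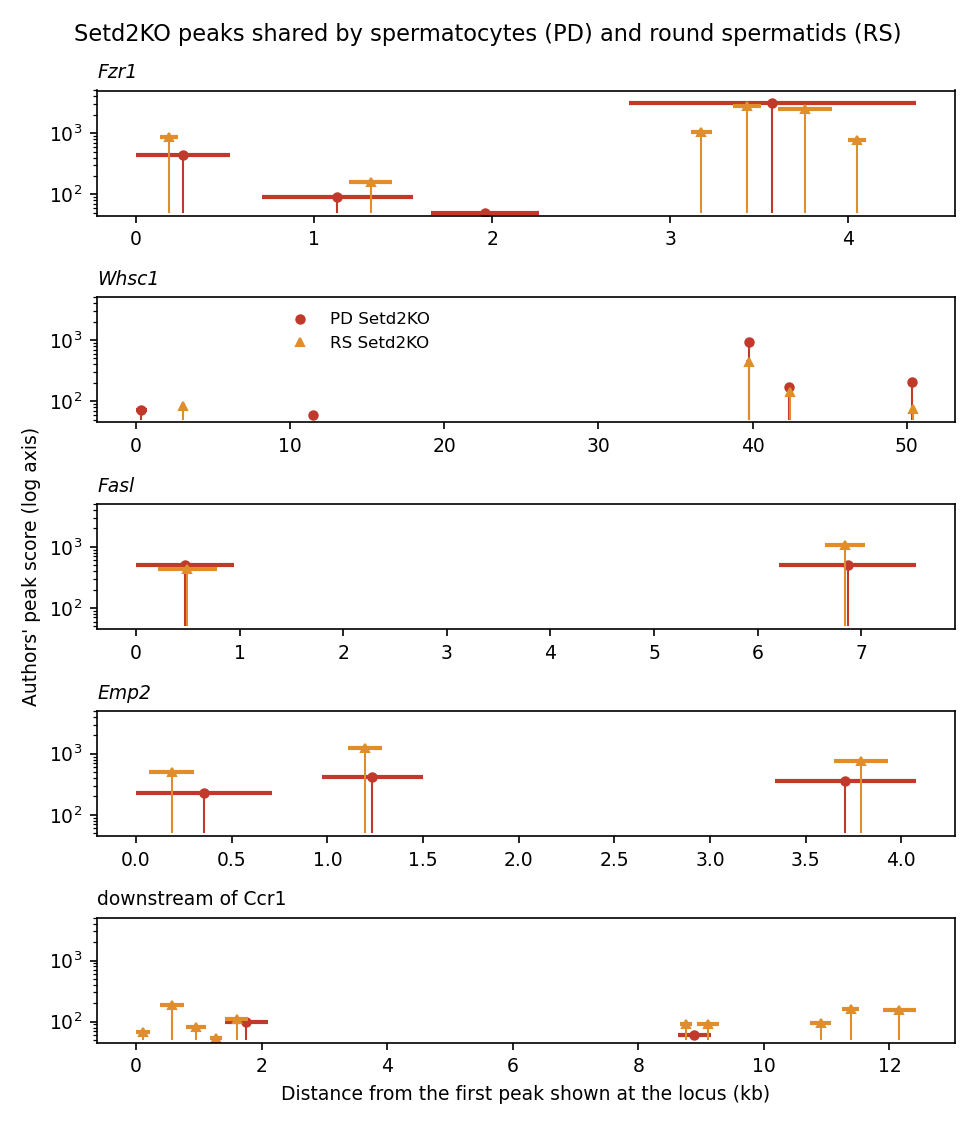
Setd2KO peaks of PD and RS at Fzr1, Whsc1, Fasl, Emp2 and downstream of Ccr1, with distance in kilobases from the first peak shown on the horizontal axis and the authors' score on a log vertical axis; horizontal bars span each peak. The peaks named in the text overlap between PD and RS Setd2KO, while the Fzr1 peak of score 50.16 and 2 Whsc1 peaks of PD stand alone, and at the 4 genes the RS peaks are the narrower.

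The 63 peaks at gene starts had a median width of 726 bases, against 591 for peaks in genes away from starts and 574 for those outside genes. Their median score was 59.12, and 15 of the 27 peaks of at least 1 kb were among them (55.6%), whereas none of those 27 was over 100 kb from a gene. The widest peak of all, 1940 bases at chr11:91436826-91438765, covered most of Kif2b, an intronless gene of the kinesin-13 family that takes microtubules apart. Others of more than 1.2 kb stood at Tmco5 (1526 bases, coiled-coil protein), Erich3 (1495, a protein of cilia), Spaca7 (1426, an acrosomal protein), Fasl (1318), Nkx2-6 (1299, a homeobox factor), Phlpp1 (1294, a phosphatase) and Creb3l4 (1220). The Spaca7 peak ended 287 bases before the gene and is counted at its start but not over it. None of these 8 touched a peak of either WT list.

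Peaks near starts sat to one side. Of peak centres within 2 kb of a start, 19 were upstream and 56 downstream in PD Setd2KO, against 1048 upstream and 1056 downstream in PD WT. RS Setd2KO had 21 upstream and 22 downstream, and RS WT had 873 upstream and 811 downstream. Within that 2 kb, the lean downstream was seen in PD Setd2KO and in none of the other 3 lists, with no test made of it. Further out the WT lists leaned downstream too. From 2000 to 2250 bases, PD WT had 344 centres downstream against 201 upstream, and RS WT had 223 against 151. For 38 of the 67 start genes the peak lay wholly downstream, beginning at a median of 419 bases and ending at a median of 1265 bases after the start. It covered the start in 15 genes and lay upstream in 14. A start peak touched an RS Setd2KO peak in 1 case of 63, at Fasl.

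**Figure D4:**
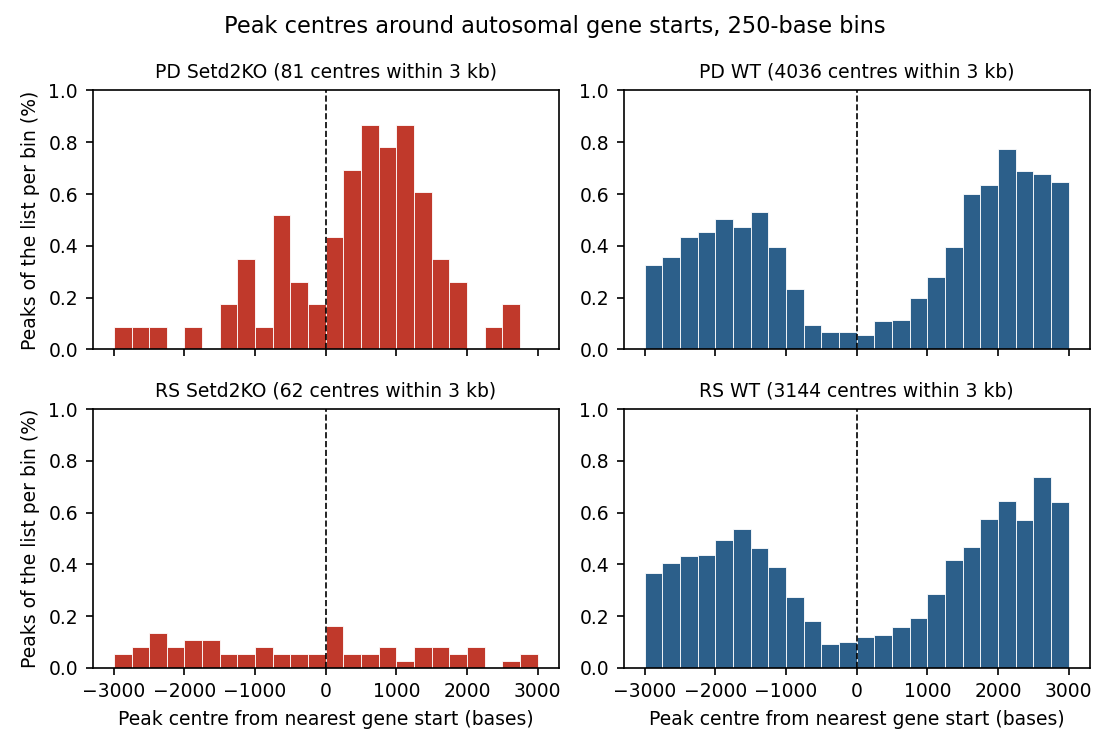
Share of each list's peaks with a centre in each 250-base bin from 3 kb upstream to 3 kb downstream of the nearest gene start, for PD Setd2KO, PD WT, RS Setd2KO and RS WT. The 81 PD Setd2KO centres gather on the downstream side, while the WT lists are lowest around the start itself and have many peaks on both sides.

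RNA levels were not used to choose the peaks. Most of the start genes, 55 of 67, were called higher in RS WT than in PD WT (limma). Median RNA of the 67 genes was 34.4 and 43.8 FPKM in the RS Setd2KO libraries, against 53.3 and 48.5 FPKM in RS WT. In spermatocytes it was 12.3 and 7.81 FPKM in PD Setd2KO, against 2.38 and 3.83 FPKM in PD WT. Every one of the 67 genes had a mean of at least 1 FPKM in RS WT, a level that 46.1% of autosomal genes reached, and 50 of them (74.6%) had at least 20 FPKM, against 12.7% of autosomal genes. The share of genes with a Setd2KO peak at the start went up with RNA in RS WT. It was 0 of 10631 genes under 1 FPKM. An approximate upper limit of 3 counts, not an exact interval, allows a share of up to 0.0282% there. The share was 7 of 3648 (0.192%) at 1 to 5 FPKM and 10 of 2943 (0.340%) at 5 to 20. It was 29 of 2036 (1.42%) at 20 to 100, and 21 of 467 (4.50%) at 100 or more.

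Start genes of the other lists had other profiles. The 67 genes had median RNA of 50.4 FPKM in RS WT and 3.03 FPKM in PD WT, against 7.66 FPKM in RS WT and 12 FPKM in PD WT for the 5648 genes with a PD WT peak at the start. The 24 genes with an RS Setd2KO peak at the start had 0.583 FPKM in RS WT. Of the 50 start genes with at least 20 FPKM in RS WT, 20 lay under an RS WT peak somewhere (40.0%, interval 26.4 to 54.8%), against 78.3% of the other 2453 genes of that RS WT level. A PD WT peak lay over 22 of the 50 (44.0%, interval 30 to 58.7%), against 80.8% of the other genes, but these sets were not matched on RNA in PD WT, where start genes were low. The start genes were also shorter, with a median of 8.41 kb against 16.6 kb at that level. As examples, no base of Kif2b, Tmco5, Erich3, Spaca7 or Spag6 lay under a peak of either WT list.

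In wild type most of the start genes were higher in spermatids. RS WT exceeded PD WT in 55 of the 67 genes and was lower in 3 (adjusted p under 0.05, limma), where 36% and 46.7% of all 11452 tested genes were called higher and lower. The median log2 difference was 3.81, against -0.21 over all tested genes. The 67 all passed the filter of a mean of 1 FPKM in some group, through RS WT in every case. Without PD WT library 1 there were 5 lower. The 3 lower in RS WT were Fam208a, a subunit of the HUSH silencing complex, Ccdc108 and Cog6.

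In Setd2KO spermatocytes 39 of the 67 start genes rose and 0 fell, against 29.8% called higher and 6.3% called lower of all tested genes. Of the 39, 33 were among the 44 start genes at least 4-fold higher in RS WT than in PD WT, a choice that uses PD WT values. Only 6 of the other 23 start genes rose, and the median log2 change of those 23 was 0.26. In limma 0 start genes were lower also at an unadjusted p under 0.05, and 4 had a negative log2 change. The median log2 change of all 67 was 0.68, against 0.19 over all tested genes. With each PD library left out in turn, 29 to 48 start genes rose. Upper-quartile scaling and quantile normalization called 36 and 34 higher and 1 and 2 lower.

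Several of these genes are known from the spermatid head and tail. Kif2b had 28.2 and 16.0 FPKM in PD Setd2KO, against 4.17 and 6.29 FPKM in PD WT (log2 1.86, SE 0.25, adjusted p = 6.0e-04, limma). Tmco5 had 25 and 13.3 FPKM in PD Setd2KO, against 3.41 and 4.50 FPKM in PD WT (log2 1.97, SE 0.24, adjusted p = 3.9e-04). Spag6, a protein of the central pair of the sperm tail, had 15.5 and 8.82 FPKM in PD Setd2KO, against 1.76 and 3.83 FPKM in PD WT (log2 1.80, SE 0.29, adjusted p = 0.0012). Both Setd2KO libraries stood above both WT libraries for all 3 genes, with library 1 the higher of the Setd2KO pair. Spaca7 had 14.2 and 7.86 FPKM in PD Setd2KO, against 1.59 and 3.48 FPKM in PD WT (log2 1.77). Erich3 had 10.6 and 5.83 FPKM in PD Setd2KO, against 1.53 and 2.62 FPKM in PD WT (log2 1.56). Creb3l4, a membrane-bound transcription factor of spermatids, had 26.2 and 19.1 FPKM in PD Setd2KO, against 6.04 and 10.3 FPKM in PD WT (log2 1.39). None of these pairs of groups overlapped. Clip4 (1.70), Tex36 (1.70), Ddi1 (1.66), Stat4 (1.53), Nkx2-6 (1.21) and Aqp7 (1.12), an aquaporin that passes glycerol, rose by the log2 changes given, again with no overlap. Ddi1 overlaps Pdgfd, and whether strand was used in counting is not stated, so reads of the 2 genes may be mixed.

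**Figure D5:**
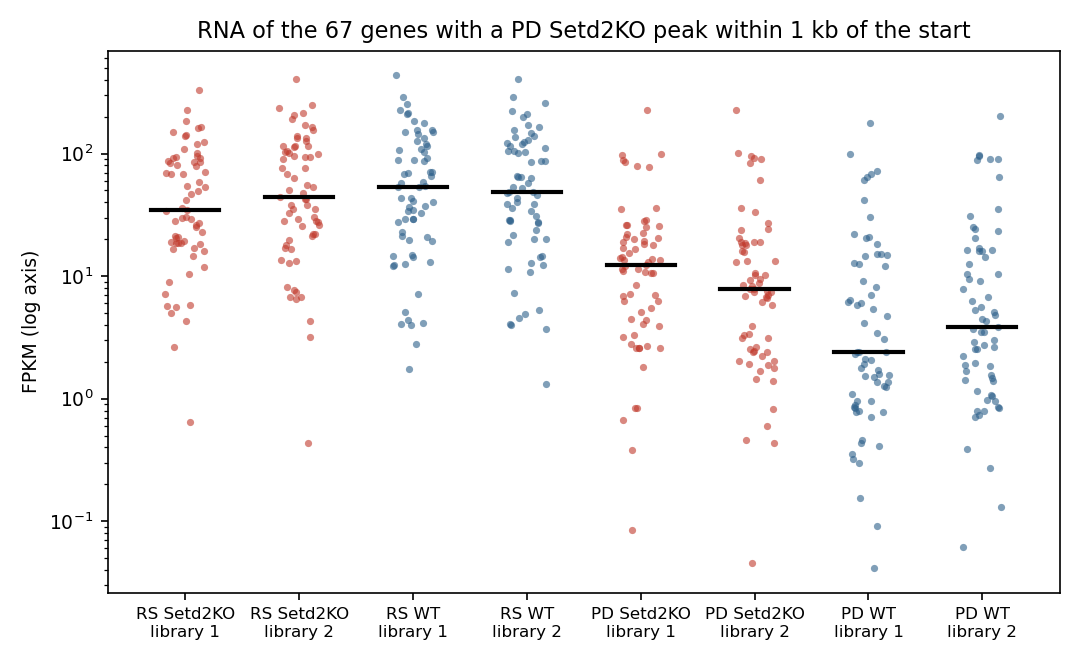
RNA level of the 67 genes with a Setd2KO peak within 1 kb of the start, as FPKM on a log axis in each of the 8 libraries, with 1 point per gene and a line at each library's median. All 4 RS libraries have medians of at least 34.4 FPKM, and both PD Setd2KO libraries have medians (12.3 and 7.81 FPKM) above both PD WT libraries (2.38 and 3.83 FPKM).

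Markers of round spermatids moved in the same samples. The 8 marker genes, of which Spaca7 is also a start gene, summed to 101 and 54.7 FPKM in PD Setd2KO, against 15.7 and 23.8 FPKM in PD WT. In the spermatids the sums were 634 and 827 FPKM in RS Setd2KO, against 1032 and 933 FPKM in RS WT. All 8 were above 1 FPKM in both PD Setd2KO libraries, and 7 were in each PD WT library. Set against the mean RS level for each genotype, their median stood at 13.3 and 7.36% in PD Setd2KO, against 1.39 and 2.50% in PD WT. For the 44 start genes at least 4-fold higher in RS WT than in PD WT, a choice that uses PD WT values, the medians were 13.7 and 7.54% in PD Setd2KO, against 1.86 and 2.83% in PD WT. The libraries kept the same order and nearly the same values in the markers and in these 44 genes. Medians of the other 23 start genes were 82.0 and 87.3% in PD Setd2KO, against 59.1 and 92.8% in PD WT. The 4-fold rule itself makes PD WT low against RS WT in the 44 and not in the 23. The PD WT contrast between the 44 and the 23 thus follows from the choice and is no result. Of the 8 round spermatid markers, 7 rose in PD Setd2KO by the limma test and 0 fell. Other marker lists held members that moved apart. Of 8 elongating spermatid markers, Odf1, Oaz3 and Gapdhs rose and the protamine genes Prm1 and Prm2 fell, and the sums were 192 and 125 FPKM in PD Setd2KO, against 211 and 187 FPKM in PD WT. Of 10 spermatocyte markers, Sycp1, Sycp3 and Hormad1, which encode chromosome axis and synaptonemal complex proteins, rose and Spo11 and Pou5f2 fell. Their sums, mostly of Ldhc, were 2310 and 2287 FPKM in PD Setd2KO, against 2025 and 2683 FPKM in PD WT. The 6 spermatogonial markers summed to 11.5 and 16.6 FPKM in PD Setd2KO, against 5.60 and 5.98 FPKM in PD WT, and all 3 that passed the filter, Stra8, Dmrt1 and Uchl1, rose. Stra8, a gene of meiotic entry, had 2.69 and 2.97 FPKM in PD Setd2KO, against 0.511 and 0.306 FPKM in PD WT. Among somatic markers, 1 of 3 tested Leydig cell genes and 1 of 3 tested peritubular myoid genes rose. The Leydig gene was Insl3, at 1.87 and 3.24 FPKM in PD Setd2KO against 0.733 and 0.922 FPKM in PD WT. The myoid gene was the smooth muscle gene Myh11, under 1 FPKM in PD. The other tested genes of these lists were not called. Their log2 changes were -0.10 for Star and 0.37 for Cyp17a1 (Leydig), and -0.13 for Tagln and 0.32 for Acta2 (myoid). The 6 Sertoli cell and 4 macrophage markers were each under 1 FPKM in PD. The part that other cells in the PD sort, round spermatids included, play in the RNA rise was not tested. In sorted bulk cells, more cells of a type and more RNA per cell cannot be told apart.

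In round spermatids the start genes went both ways, with 7 higher and 8 lower in RS Setd2KO (limma), where 20.9% and 21.8% of all tested genes were called higher and lower. Their median log2 change was -0.17. The 7 higher became 3 without RS Setd2KO library 2 and 4 without RS WT library 1, and the 8 lower became 3 without RS Setd2KO library 1, 4 without RS WT library 1 and 5 without RS WT library 2. Rec8, the meiotic cohesin kleisin, had 19.1 and 28.2 FPKM in RS Setd2KO, against 57.7 and 48.7 FPKM in RS WT (log2 -1.16, adjusted p = 0.0012). Mroh7 had 19.3 and 35.4 FPKM in RS Setd2KO, against 53.4 and 47.3 FPKM in RS WT (log2 -0.92, adjusted p = 0.0078). Spz1, a transcription factor of spermatogenic cells, had 160 and 214 FPKM in RS Setd2KO, against 288 and 289 FPKM in RS WT (log2 -0.64, adjusted p = 0.035). In each of these 3 both RS Setd2KO libraries were below both RS WT libraries. Rec8 kept its call with each library left out. Mroh7 did not pass without RS Setd2KO library 1 (adjusted p = 0.064) or RS WT library 1 (0.066), nor Spz1 without RS Setd2KO library 1 (0.25), RS WT library 1 (0.13) or RS WT library 2 (0.12), or with no filter (0.074). Fam208a had 8.87 and 7.67 FPKM in RS Setd2KO, against 5.09 and 4.88 FPKM in RS WT (log2 0.63, adjusted p = 0.0021), and Btg1, an antiproliferative gene, rose by 0.61, a call lost without RS Setd2KO library 2 (adjusted p = 0.071) or RS WT library 1 (0.14). Kif2b was 185 and 251 FPKM in RS Setd2KO, against 253 and 259 FPKM in RS WT, and did not pass the test (log2 -0.25, adjusted p = 0.45).

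Taking the Setd2KO effect in RS less that in PD, 36 start genes were called lower and 1 higher, where 27.3% and 7.76% of tested genes were called lower and higher (limma). The median was -1.08, against -0.16 over all tested genes. Spag6 had a difference of -2.18 (SE 0.41, adjusted p = 0.0023), made of -0.38 in RS and 1.80 in PD. Cog6, of the Golgi tethering complex, was the 1 higher, at 0.73, and it lost the call without any 1 of the Setd2KO or RS WT libraries, while without PD WT library 1 there were 3.

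At 17 of the 63 start peaks a PD WT peak was also listed, among them those at Btg1, Fam208a, Actl7b and Saysd1. Btg1 had 12.1 and 10.3 FPKM in PD Setd2KO, against 5.36 and 5.63 FPKM in PD WT (log2 0.90, adjusted p = 0.0021). Fam208a had 22.2 and 23.6 FPKM in PD Setd2KO, against 15.3 and 16.0 FPKM in PD WT (log2 0.52, adjusted p = 0.0081; 0.067 without PD Setd2KO library 2). Neither pair overlapped. Actl7b, an actin-like protein gene of spermatids, had 78.6 and 60.7 FPKM in PD Setd2KO, against 41.7 and 64.1 FPKM in PD WT. Its groups overlapped and it did not pass the test (adjusted p = 0.16). Saysd1 had 18.4 and 17.9 FPKM in PD Setd2KO, against 12.2 and 16.9 FPKM in PD WT (log2 0.32, adjusted p = 0.17).

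Peaks inside genes but away from starts met another kind of gene. They lay over 339 genes with a median length of 248 kb, against 16.2 kb for all autosomal genes, and median RNA of 0.569 FPKM in RS WT. An RS Setd2KO peak lay somewhere in 149 of them (44.0%), against 5.43% of all autosomal genes and 8.96% of start genes. Longer genes offer more bases to meet, and that share was not adjusted for length. Of the 339, 177 passed the RNA filter. In PD Setd2KO 77 of these were called higher and 6 lower, and in RS Setd2KO 46 higher and 46 lower, where all tested genes had 29.8% higher and 6.3% lower in PD and 20.9% higher and 21.8% lower in RS. Because passing the filter needs expression in some group, these counts are an account and not evidence about the 339. The same limit holds for the counts that follow over all 393 genes under any peak, start genes among them. For all 393 genes under any peak the counts in PD Setd2KO were 112 higher (48.5%) and 6 lower (2.60%) of 231 tested, against 29.8% and 6.3% of all tested genes, and 61 higher and 15 lower under quantile normalization. Without PD Setd2KO library 1 they were 72 and 1, and the lower count was 3 without PD Setd2KO library 2 or PD WT library 2.

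Single genes in this class moved in each direction. Supt3, a subunit of the SAGA coactivator, had 7.41 and 5.82 FPKM in PD Setd2KO, against 2.82 and 3.10 FPKM in PD WT (log2 0.94, adjusted p = 6.2e-04, limma). Ccdc178 had 19.8 and 19.4 FPKM in PD Setd2KO, against 23.3 and 30.9 FPKM in PD WT (log2 -0.43, adjusted p = 0.049), a call lost without PD Setd2KO library 1 (0.17), PD Setd2KO library 2 (0.19) or PD WT library 2 (0.12). In spermatids Ccdc91 had 19.6 and 25.5 FPKM in RS Setd2KO, against 59.0 and 57 FPKM in RS WT (log2 -1.34, adjusted p = 4.6e-05). Ccdc187 had 6.34 and 8.12 FPKM in RS Setd2KO, against 21.8 and 20.2 FPKM in RS WT (log2 -1.43, adjusted p = 1.7e-05). No overlap between groups was seen in these 4 genes. Rnls had 35.3 and 32.3 FPKM in RS Setd2KO, against 3.28 and 14.4 FPKM in RS WT (log2 2.10, adjusted p = 0.0030), with WT libraries far apart, and the log2 change was 1.17 without RS WT library 1.

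Of the 12 peaks of at least 1 kb not within 1 kb of a start, some met testis genes, singled out after their values were seen. One of 1195 bases, at chr11:105845814-105847008 with a score of 95.72, lay inside Ace, 9.89 kb from the annotated start. Ace encodes angiotensin-converting enzyme, and spermatids are known to transcribe a shorter form of it from a promoter within the gene. Ace RNA was 4.64 and 3.53 FPKM in PD Setd2KO, against 3.18 and 3.13 FPKM in PD WT, and 30.9 and 40.7 FPKM in RS Setd2KO, against 63.5 and 65.7 FPKM in RS WT. The Ace peak touched a peak of RS WT and none of PD WT. Another, of 1046 bases and score 102.97, lay in Fam170b with its centre 1.76 kb after the start. Fam170b had 10.4 and 5.98 FPKM in PD Setd2KO, against 1.65 and 2.52 FPKM in PD WT (log2 1.55, adjusted p = 0.0011, limma). A peak of 1317 bases lay 3.67 kb upstream of the start of Gsg1, a germ cell gene with 192 and 272 FPKM in RS Setd2KO, against 405 and 381 FPKM in RS WT. Dpf3 held one of 1039 bases and had 3.76 and 2.06 FPKM in PD Setd2KO, against 0.504 and 0.511 FPKM in PD WT. Of the nearest genes of all 12 peaks, 11 were tested. RS WT was higher than PD WT in 5 of them (Fzr1, Gsg1, Ace, Fam170b and Dpf3) and lower in 4 (Polr3b, Strip2, Eps15 and Spdl1), so the testis examples do not stand for the 12.

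Gene lists met few peaks. Of 27 intronless testis genes 3 lay under a peak, Kif2b, Actl7b and Gykl1, and of 22 acrosome genes 0 did, with Spaca7 beside its peak. Spag6 was the 1 of 18 late spermatid genes, Rec8 the 1 of 24 synaptonemal complex and recombination genes, and Fzr1 the 1 of 24 genes of cell cycle exit and the anaphase-promoting complex. No peak lay over any of 15 housekeeping, 1112 Olfr, 329 Vmn or 67 Hist genes. Over all autosomal genes the share under a peak was 1.99%, so 0 among 15 or 67 genes says little. Genes under a peak had a median length of 191 kb, against 16.2 kb for all autosomal genes. The counts of these lists were not adjusted for length.

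The targeted gene did not show its loss at the level of the whole gene. Setd2 had 21.0 and 21.4 FPKM in PD Setd2KO, against 21.2 and 19.1 FPKM in PD WT (log2 0.07, adjusted p = 0.74, limma). RS Setd2KO had 12.1 and 8.67 FPKM, against 5.24 and 5.58 FPKM in RS WT (log2 0.81, adjusted p = 0.0016). A gene-level value cannot show removal of some exons, so it checks nothing about the deletion. The ChIP lists did differ by label, with a covered length of 0.701 Mb in PD Setd2KO against 238 Mb in PD WT. Prdm9 was listed at 0.210 and 0.229 FPKM in PD Setd2KO, against 0.181 and 0.123 FPKM in PD WT. Libraries of a group had a Pearson r of 0.992 to 0.995 across genes, and relative depth, read from the smallest FPKM steps, ranged 0.994 to 1.66 times that of PD WT library 1.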

How the data were processed

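H3K36me3 peaks came as 1 BED list per sample, with a score for each peak that the authors gave; peak names follow MACS style, and CASAVA, Bowtie, bedtools and build mm9 are listed in the submitters' processing notes. RNA values were deposited as FPKM, and the notes name CASAVA, TopHat2, Cufflinks and Cuffdiff. Versions are not given in the sources used here. Gene starts and strand come from the deposited PD Setd2KO RNA table. Intervals differed between the RNA tables of the groups for 1056 genes.

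Peaks were set against genes, starts (1 kb) and other lists with an overlap of at least 1 base, in Python 3.11.15. Shares carry exact (Clopper-Pearson) 95% intervals. For RNA, FPKM on the scale log2(FPKM + 1), whose pseudocount is 1, went into limma 3.58.1 (R 4.3.3) with an intensity trend and 1 mean for each of the 4 groups, over the 11452 of 20626 genes whose mean reached 1 FPKM in some group (4 residual and 6.92 prior degrees of freedom). P-values were adjusted by Benjamini-Hochberg over all tested genes, two-sided, and called under 0.05. Fold changes on this scale understate those of low genes. Over all tested genes the median PD Setd2KO change was 0.19, and PD changes are on the deposited scale. The fit was tested on simulated data. FPKM hold no counts, so no count test was made; their number of libraries limits precision. Unmapped value columns: 0.

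Named genes are those of the widest and highest-scoring peaks, of peaks inside PD WT or touching RS Setd2KO peaks, with the largest called changes, the highest in PD Setd2KO, and list members under a peak, with Setd2 and Prdm9; start genes and the Ace, Gsg1 and Dpf3 examples were added. The members and lists were chosen with earlier results of these data known. Alternatives were another pseudocount, no filter, upper-quartile and quantile scaling, a replicate block, each library left out, a score of at least 60, other overlaps and windows. Peak sequences were not used, for want of an mm9 genome here.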

Additional observations from a re-analysis of the deposited data

Results flagged for a closer look

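The 21 genes listed here had a Setd2KO effect, as a log2 change, that differed between RS and PD by the limma test of the difference itself. Of all tested genes, 27.3% were called lower and 7.76% higher in that test. The list is not complete, since start genes named for their peak alone, such as Stat4, Aqp7, Creb3l4, Spz1 and Cog6, were also called. Large called changes in these same data were among the reasons for naming genes. Start genes that rose in PD Setd2KO made up most of the negative differences: Kif2b -2.11, Tmco5 -2.12, Spag6 -2.18, Spaca7 -2.08, Tex36 -2.0, Erich3 -1.97, Clip4 -1.84, Ddi1 -1.61, Nkx2-6 -1.60 and Mroh7 -1.65. Fam170b, with a peak further inside the gene, stood at -2.01. Kif2b, for example, had a change of -0.25 in RS and 1.86 in PD.

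Rec8 stood at -1.72, made of -1.16 in RS and 0.56 in PD, where only the RS fall passed the test. Ccdc91 (-1.69), Agpat9 (-1.64), Ccdc187 (-1.55), Myo6 (-0.89) and Fasl (-0.74) also had lower effects in RS. Fasl was tested only because its mean passed 1 FPKM in RS WT. Differences were positive for Rnls (1.84), Ccdc178 (0.81), Lin54 (0.75) and Zfpm2 (0.63), and all 4 lost the call in some reruns. Rnls lost it in 8 settings and stood at 0.91 without RS WT library 1 (adjusted p = 0.069, limma) and 2.76 without RS WT library 2. Lin54 lost it in 9 settings and stood at 0.46 without RS WT library 1 (adjusted p = 0.21). Ccdc178 lost it without PD Setd2KO library 2 (adjusted p = 0.052) or RS WT library 2 (0.063), and Zfpm2 without RS WT library 1 (0.058). Round spermatid markers differed between PD Setd2KO and PD WT in the same libraries, and their part in these differences was not tested.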

How the results depend on the processing

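Counts for the 393 genes under a peak moved as follows, PD Setd2KO against PD WT first. The 112 higher became 61 with quantile normalization, 50 with a score of at least 60, 39 with peaks at the start alone and 72 to 109 with a library left out; the 6 lower became 3 with no filter, 15, 1 and 0, and 1 to 7. In RS Setd2KO against RS WT the 51 higher became 100 with no filter, 16 with a score of at least 60, 7 at starts and 32 to 41 with a library left out, and the 52 lower became 11, 8 and 28 to 56 under the last 3. In RS WT against PD WT the 143 higher became 53 with a score of at least 60, 55 at starts and 140 to 151 with a library left out, and the 54 lower became 14, 3 and 46 to 57. For the RS effect minus the PD effect, the 14 higher became 9 with a pseudocount of 0.1 FPKM, 28 with no filter, 24 with upper-quartile scaling, 34 with quantile normalization, 2 with a score of at least 60, 1 at starts and 6 to 21 with a library left out, and the 103 lower became 36, 36 and 87 to 110 under the last 3. Fewer genes enter with the higher score and at starts; for the other settings the cause was not tested.

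Start-gene counts were alternatives chosen after seeing the data. With upper-quartile scaling and quantile normalization, the 0 lower in PD Setd2KO became 1 and 2, the 3 lower in RS WT than PD WT became 6 and 5, and the 1 higher RS effect became 2 and 4. With a library left out, PD higher was 29 to 48, PD lower 0 throughout, RS higher 3 to 5, RS lower 3 to 10, RS WT higher 53 to 58 and lower 2 to 5, and the difference in effect 0 to 3 higher and 33 to 44 lower.

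With a score of at least 60 the shares of peaks touching PD WT, RS Setd2KO and RS WT peaks became 8.39%, 4.70% and 9.06%, and that within 1 kb of a start 10.1%. Asking for 50% of the peak to be overlapped gave 0.347% for RS Setd2KO. Those RS peaks had a median width of 176 bases, against 587 in PD Setd2KO. A single RS peak could seldom meet the 50% rule, so that drop follows from width. A 500-base window around starts gave 3.65%. Replicate numbers did not pair the libraries (r of deviations -0.31 to 0.07), and the replicate block gave 104 higher and 4 lower in PD and 38 of the start genes higher. Over 213 changes of named genes, 1920 of 2113 reruns kept the call, 193 lost it and 0 reversed. With 1 list per group, no peak result has a replicate.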
